A study of Mus musculus with 2 samples.

Results

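The genes described here encode the nonsense-mediated decay machinery and the 5' to 3' exonucleases, in the hypothalamus of mice that lack Crtc1 and of wild-type mice. The 9 named members were Upf1, Upf2, Upf3a, Upf3b, Smg1, Smg5, Smg6, Xrn1 and Xrn2, and a probe set counted for a member where the platform annotation paired it with that gene alone. That gave 17 probe sets for 7 members, of 18193 genes with such a probe set in all. Upf3a and Upf3b had none in the annotation used and are not analysed here. Upf1 and Xrn1 were picked on their difference between the knockout and the wild type, Upf1 as lower and Xrn1 as higher, so their differences are given as a description and support nothing.

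In all, 2 pooled RNA samples were measured, each on 1 Affymetrix mouse expression array. The Crtc1 knockout (KO) pool and the wild-type (WT) pool each combined equal amounts of hypothalamic RNA from 3 males aged 12 weeks that had fasted for 18 h and then eaten for 6 h. For the mouse strain and the construction of the Crtc1 allele, nothing is stated in the labels used here. With 1 pool per genotype there was no replicate, no test between genotypes was possible, and a difference between pools cannot be told apart from a difference between single mice within them.

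Nonsense-mediated decay removes mRNAs on which translation stops too early. UPF1 is the RNA helicase at its centre. UPF2 and UPF3 proteins bridge it to the exon junction complex that splicing leaves on the mRNA. The kinase SMG1 phosphorylates UPF1, and phosphorylated UPF1 recruits SMG6, an endonuclease that cuts the mRNA near the stop codon, or SMG5, an adaptor that leads to deadenylation and decapping. XRN1 then digests decapped or cut mRNA from its 5' end in the cytoplasm, and XRN2 does the same to nuclear RNA, for example behind RNA polymerase II at the end of genes. Crtc1, the gene removed here, encodes a coactivator of the transcription factor CREB, which binds cAMP response elements (CREs) in promoters.

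The promoters of Upf1, Xrn1 and Xrn2 are shown because Upf1 and Xrn1 are the chosen pair and because Xrn2 alone among the members with a probe set held a CRE core. Each runs from 250 bases before to 50 bases after the start of the gene, 5' to 3' on the gene's own strand, from RefSeq on build GRCm38.p6. Upf1 is at chr8:70353230-70353529 on the minus strand, Xrn1 at chr9:95954510-95954809 on the plus strand and Xrn2 at chr2:147012749-147013048 on the plus strand. Capitals mark matches on either strand to the full CRE TGACGTCA, its core TGACG, the GC box GGGCGG or the CCAAT box.
Upf1: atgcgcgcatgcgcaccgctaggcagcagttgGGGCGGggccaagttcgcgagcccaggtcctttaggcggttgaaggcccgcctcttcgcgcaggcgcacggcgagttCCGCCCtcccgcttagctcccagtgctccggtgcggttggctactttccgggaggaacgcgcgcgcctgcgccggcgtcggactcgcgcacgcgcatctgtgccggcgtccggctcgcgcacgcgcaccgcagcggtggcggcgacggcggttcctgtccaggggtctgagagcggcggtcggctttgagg
Xrn1: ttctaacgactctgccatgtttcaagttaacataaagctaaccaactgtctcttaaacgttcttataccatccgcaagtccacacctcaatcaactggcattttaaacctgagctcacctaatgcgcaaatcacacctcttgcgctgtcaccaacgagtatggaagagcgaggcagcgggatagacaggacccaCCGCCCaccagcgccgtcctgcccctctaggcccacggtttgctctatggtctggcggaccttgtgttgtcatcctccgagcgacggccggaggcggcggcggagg
Xrn2: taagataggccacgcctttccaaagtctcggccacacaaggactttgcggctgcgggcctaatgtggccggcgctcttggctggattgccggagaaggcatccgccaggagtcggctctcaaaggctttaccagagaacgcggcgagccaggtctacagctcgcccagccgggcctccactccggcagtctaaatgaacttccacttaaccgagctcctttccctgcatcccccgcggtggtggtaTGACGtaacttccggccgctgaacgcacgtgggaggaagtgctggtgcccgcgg

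All 9 members matched 1 promoter each in the RefSeq table. Among the 7 members with a probe set, 0 promoters held the full CRE, which 1.79% of the 32851 promoters of this length hold. The core TGACG lies within the full CRE and was found in 1 of the 7, Xrn2, where it starts at base 247 of the printed sequence. It was found in 20.8% of all promoters. The GC box was found in 5 of the 7, Upf1 and Xrn1 among them, and in 35.7% of all promoters, and the CCAAT box in 1 of the 7 and 37.4% of all. The 7 promoters had a G and C content of 55.0% to 72.3%, against a median of 52.7% over all promoters. A match is a description of the letters, and a window without one says nothing about binding of the factor.

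The deposited values are linear signals, 1 per probe set and array, with nearly the same trimmed mean on both arrays. Signals were floored at the 30th percentile of each array, 20.5 in the KO pool and 20.2 in the WT pool, and put on the log2 scale. To count as measured, a probe set had to reach a mean log2 signal of 5.71 (a signal of 52.3), the median of all probe sets. This left 22519 probe sets and 11312 genes, a gene taking the value of its brightest measured probe set. Crtc1 read 85.1 in the KO pool and 631.3 in the WT pool by its brightest probe set, 7.42-fold lower in the KO pool, and 31.5 in the KO pool against 209.2 in the WT pool by the second. The ratio of 3' to 5' control signals was 1.47 in the KO pool and 1.25 in the WT pool for actin, and 0.863 in the KO pool and 0.873 in the WT pool for Gapdh. For transferrin receptor controls it was 3.85 in the KO pool and 5.87 in the WT pool, and for pyruvate carboxylase controls 2.60 in the KO pool and 1.68 in the WT pool. The part of RNA quality in the results below was not tested.

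Of the 17 member probe sets, 11 were measured and 6 were too dim, and all 7 members with a probe set had at least 1 measured. By their brightest probe sets 5 members were higher and 2 lower in the KO pool. With each array centred on its median Upf2 and Smg1 turned to a difference of 0.00 and -0.04, so that split depends on the scaling. The median difference of the 7 was 0.06 on the log2 scale, and that of all 11312 measured genes was 0.00. Xrn1 and Upf1, the chosen pair, were the 2 members that differed at least 1.5-fold. Of all measured genes 3.5% did so, 2.06% higher and 1.44% lower. Of those past 1.5-fold 58.8% were higher in the KO pool, and 41.9% with median centring, 48.6% with quantile normalization. Among the genes of mean log2 signal below 7, where both of these members lie, 10.9% differed at least 1.5-fold. Since the pair was chosen by this difference, nothing is read from the count.

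**Figure D1:**
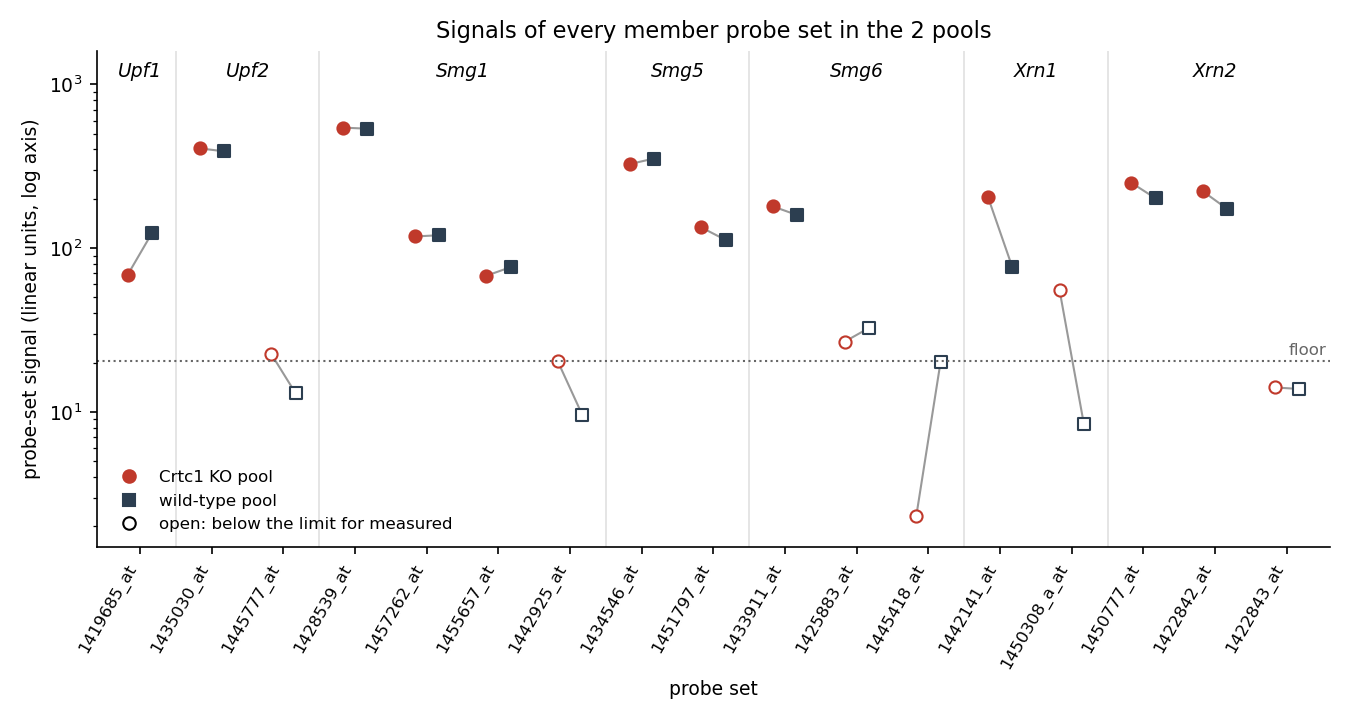
Linear probe-set signal (log axis) of all 17 member probe sets, in the KO pool (red circles) and the WT pool (dark squares), joined per probe set, 1 pool each. Filled symbols are measured probe sets and open ones are below the limit. The KO pool lies below the WT pool for Upf1 (68.9 against 124.1) and above it for both Xrn1 probe sets.

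Upf1 was the lower member of the chosen pair. Its only probe set, 1419685_at, read 68.9 in the KO pool and 124.1 in the WT pool. This is 1.80-fold lower in the KO pool (log2 difference -0.85). The array error, the SD of such differences between measured probe sets of one gene, was 0.32 at this signal, and it holds no spread between mice. Among all measured genes it was the 30th lowest, counted from the lowest difference. The gene lies 2 protein-coding genes from Crtc1 on chromosome 8, in the order of assembly GRCm38.p6. Of the 20 protein-coding genes within 10 of Crtc1, 13 were measured and 3 differed at least 1.5-fold, among them Upf1, which was chosen for its difference. Over all measured genes the share was 3.5%. What its position beside the altered gene contributes was not tested. No second probe set was there to repeat the reading.

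Upf2, Smg1, Smg5 and Smg6, whose products bind or modify UPF1, differed by at most 0.18 on the log2 scale by their brightest probe sets. Upf2, which encodes the bridge to UPF1, read 405.9 in the KO pool and 389.5 in the WT pool by probe set 1435030_at, a log2 difference of 0.06 against an array error of 0.23. Its dim probe set 1445777_at read 22.6 in the KO pool and 13 in the WT pool, the second value under the floor. The other bridging genes, Upf3a on chromosome 8 and Upf3b on chromosome X, have no value here, so the bridging step is covered by Upf2 alone.

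Smg1, the gene of the UPF1 kinase, had 3 measured probe sets. The brightest, 1428539_at, read 543.3 in the KO pool and 535 in the WT pool (0.02, array error 0.21). The next, 1457262_at, read 117.6 in the KO pool and 119.7 in the WT pool (-0.03, array error 0.32). The dimmest of the measured, 1455657_at, read 67.7 in the KO pool and 76.4 in the WT pool (-0.17, array error 0.32). All 3 lay within their array errors and their signs were mixed. Its remaining probe set, 1442925_at, read 20.3 in the KO pool and 9.6 in the WT pool, under the floor in both.

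Smg5, the adaptor gene, gave opposite signs by its 2 measured probe sets. Probe set 1434546_at read 325.1 in the KO pool and 351.7 in the WT pool (-0.11, array error 0.23). Probe set 1451797_at read 133.6 in the KO pool and 112.1 in the WT pool (0.25, array error 0.32). Neither passed its array error, and the gene has no settled direction. Opposite signs were common on these arrays, at 57.5% of the 5199 genes with at least 2 measured probe sets, and at 2 of the 3 such members, Smg1 and Smg5.

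Smg6, the gene of the endonuclease, read 179.5 in the KO pool and 158.9 in the WT pool by its measured probe set 1433911_at, a log2 difference of 0.18 against an array error of 0.26. Its dim probe set 1425883_at read 26.8 in the KO pool and 32.5 in the WT pool, with the opposite sign. The dimmest, 1445418_at, read 2.3 in the KO pool and 20.2 in the WT pool, neither above the floor, so no fold is given for it.

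Xrn1, chosen as higher in the KO pool, had 1 measured probe set. Xrn2, which was not chosen, was higher by both of its measured probe sets. Xrn1, which encodes the cytoplasmic enzyme, read 205.5 in the KO pool and 76.6 in the WT pool by probe set 1442141_at, 2.68-fold higher in the KO pool (log2 difference 1.42, array error 0.32). At least 2-fold differences were seen in 0.433% of all measured genes, and Xrn1 ranked 6th from the highest difference. Its other probe set, 1450308_a_at, was too dim to count as measured. It read 55.3 in the KO pool and 8.4 in the WT pool, below the floor, so it was at least 2.74-fold higher against the floor of 20.2. Since Xrn1 was chosen as higher, nothing is read from the shared direction of its 2 probe sets. According to the annotation, 1450308_a_at was designed on a RefSeq mRNA of Xrn1 and 1442141_at on another GenBank sequence. The position of 1442141_at in the gene was not looked up here.

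Xrn2, which encodes the nuclear enzyme, read 250.5 in the KO pool and 201 in the WT pool by probe set 1450777_at, 1.25-fold higher (0.32). Its second measured probe set, 1422842_at, read 221.9 in the KO pool and 173.1 in the WT pool, 1.28-fold higher (0.36). In the deposited scaling both differences were larger than the array error of 0.26 at this signal, and both were under 1.5-fold. With median centring the difference of 1450777_at was 0.258, below that array error of 0.263. The third, 1422843_at, read 14.1 in the KO pool and 13.8 in the WT pool, under the floor in both. All 3 were designed on the same kind of record, a RefSeq mRNA. In the deposited scaling 7 of the 11 measured member probe sets differed by less than their array error. The other 4 were those of Upf1, Xrn1 and Xrn2.

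**Figure D2:**
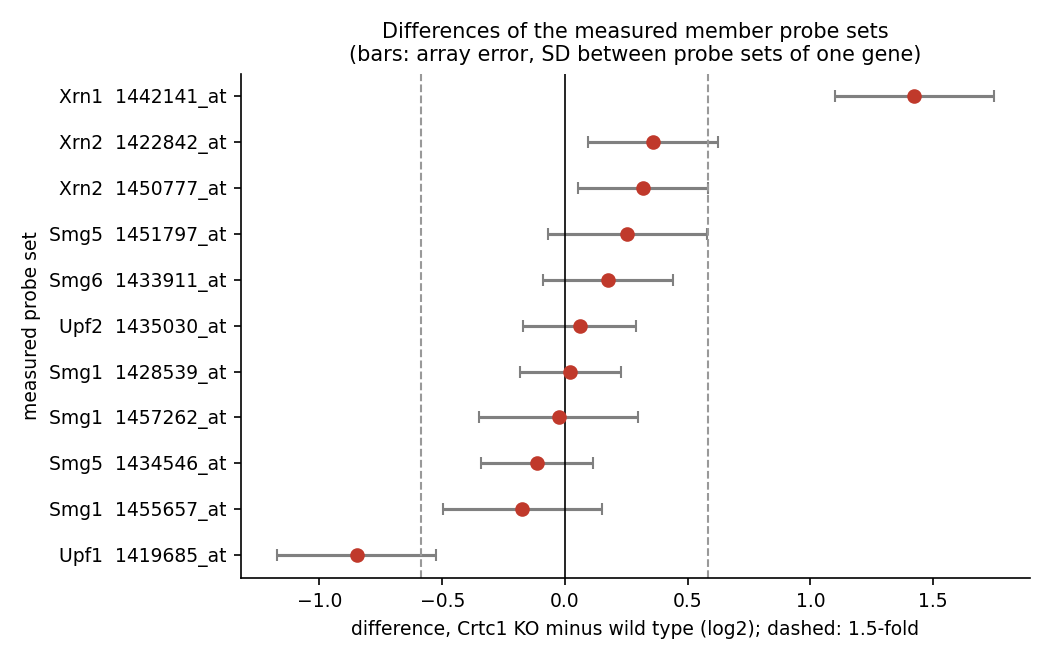
Log2 difference, Crtc1 KO minus wild type, of the 11 measured member probe sets, with bars of 1 array error (SD between probe sets of one gene, no spread between mice). Upf1 at -0.85 and Xrn1 at 1.42 lie past the dashed 1.5-fold lines, and the other 9 lie between them.

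The 5 members that were not chosen by their difference lay between -0.11 (Smg5) and 0.32 (Xrn2), at most 1.25-fold apart between the pools, with a median of 0.06. Over all measured genes the differences had an SD of 0.25, and 78.1% of genes lay within 1.2-fold. In the plot against signal, Upf1 and Xrn1 sit in the dim part, where differences spread most, and these 5 sit inside the cloud of other genes.

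**Figure D3:**
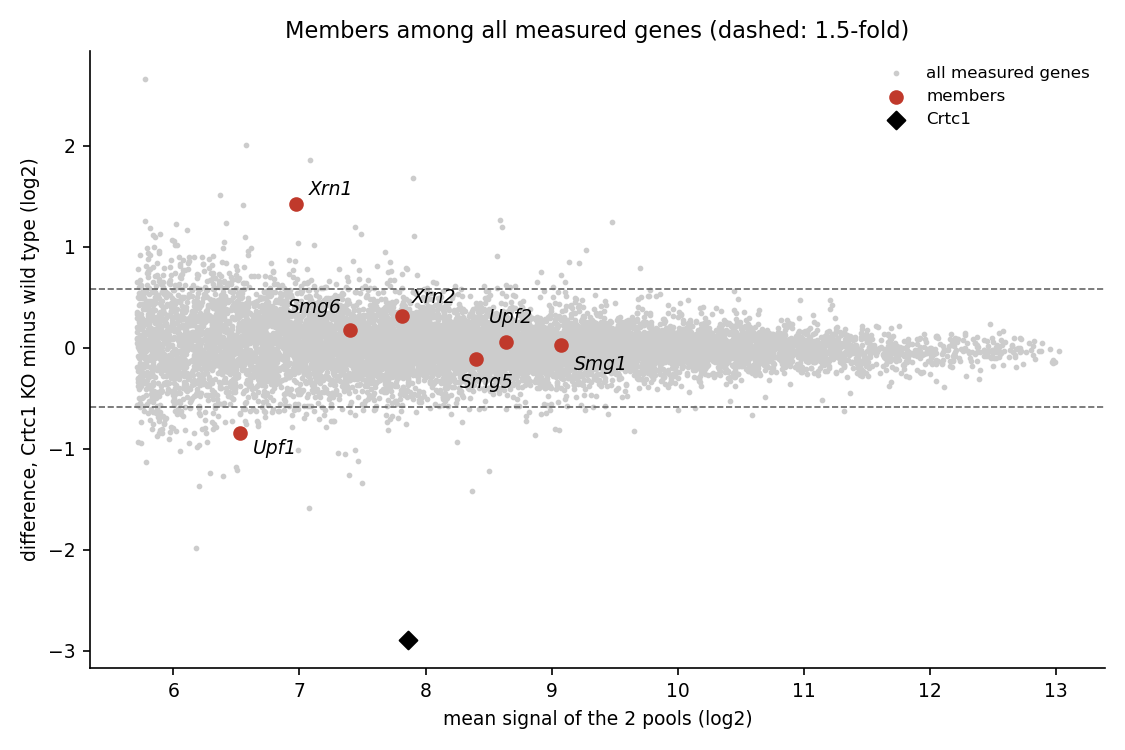
Log2 difference, Crtc1 KO minus wild type, against mean log2 signal for 11312 measured genes (grey), with the 7 members (red) and Crtc1 (black diamond). Upf1 and Xrn1 lie outside the 1.5-fold lines at mean signals below 7, and the other 5 members lie inside the lines.

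The genes nearest to Upf1 in log2 signal over the 2 pools were Gm17586, A2m and Zfp787, at distances of 0.09, 0.10 and 0.13. They read 73.4, 73.5 and 68.4 in the KO pool against 123.7, 121.9 and 113.5 in the WT pool. The nearest to Xrn1 were Zfp420, Myl4 and Zxdb, at distances of 0.28, 0.35 and 0.36. They read 181.2, 258.2 and 197.4 in the KO pool against 88.6, 71.3 and 97.7 in the WT pool. Likeness over only 2 pools describes a level and a difference, and says nothing of shared function or control. None of these genes lies on the same chromosome as the member it resembles.

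The rest of the mRNA decay machinery was split in direction. Over 5 lists of other decay genes, 71 were measured, 42 higher and 29 lower in the KO pool with a median of 0.04, and 32 higher and 39 lower with a median of -0.02 under median centring. Of the 71, 1 (1.41%) was past 1.5-fold, near the 3.5% over all measured genes, and 0 were under each of the 3 alternative scalings. Median centring also gave 7 higher and 11 lower for decapping genes, 7 and 9 for deadenylation genes and 2 and 4 for the XRN2 list. The other nonsense-mediated decay and exon junction genes stayed mostly higher under it, 9 higher and 4 lower with a median of 0.08. Values of each list follow. The lists were written with earlier results of these data known.

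Of 18 other genes of nonsense-mediated decay and the exon junction complex, 13 were measured, 10 higher and 3 lower, with a median of 0.13, and 0 passed 1.5-fold. Dhx34, a helicase gene of the pathway, read 127.9 in the KO pool and 179.2 in the WT pool (-0.49, array error 0.26). Pnrc2, whose product links UPF1 to decapping, read 255.9 in the KO pool and 196.2 in the WT pool (0.38, array error 0.26) and was higher by both of its measured probe sets. Ruvbl1, an ATPase gene, and Smg8, a regulator of SMG1, differed by 0.29 and 0.26, the second within its array error of 0.32.

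Decapping exposes the 5' end that XRN1 digests. Of 19 decapping genes 18 were measured, 9 higher and 9 lower, with a median of -0.02. Dcp1b, a cofactor gene of the decapping enzyme, read 93.1 in the KO pool and 62.7 in the WT pool, 1.48-fold higher (0.57, array error 0.32) and so just under 1.5-fold. Lsm2 and Lsm1, subunits of the ring that binds deadenylated mRNA, differed by 0.34 and -0.31, and Patl1, a scaffold gene, by -0.25.

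Deadenylation shortens the tail before decapping. Of 17 such genes 16 were measured, 8 higher and 8 lower, with a median of 0.00. The deadenylase gene Pan2 read 109.2 in the KO pool and 145.6 in the WT pool (-0.42). Tob1 and Tob2, which recruit deadenylases, differed by 0.41 and 0.37, each with probe sets of opposite sign, and the complex subunit Cnot9 by 0.24.

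The exosome degrades RNA from the 3' end. Of 19 exosome and surveillance genes 18 were measured, 12 higher and 6 lower with a median of 0.04, but 7 higher and 11 lower with a median of -0.02 under median centring. Dis3l2, a 3' to 5' exonuclease gene, read 80.8 in the KO pool and 53.3 in the WT pool, 1.52-fold higher (0.60, array error 0.32), the one gene of these 5 lists past 1.5-fold. With each alternative scaling Dis3l2 differed by 0.54, under 1.5-fold. Skiv2l, a helicase gene that feeds the cytoplasmic exosome, differed by -0.41 and the nuclear subunit Exosc10 by -0.34. Exosc3 differed by 0.28. Of 7 genes of XRN2 partners and transcription termination 6 were measured, 3 higher and 3 lower, with a median of -0.03. Cdkn2aip, whose product binds XRN2, differed by 0.33 against an array error of 0.32. It read 62.4 in the KO pool and 49.6 in the WT pool, the WT value under 52.3, the limit set for the mean signal. Cpsf3 differed by 0.23, Nkrf by -0.16 and Cpsf1 by -0.13, each within its array error. Cpsf3 and Nkrf had probe sets of opposite sign.

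**Figure D4:**
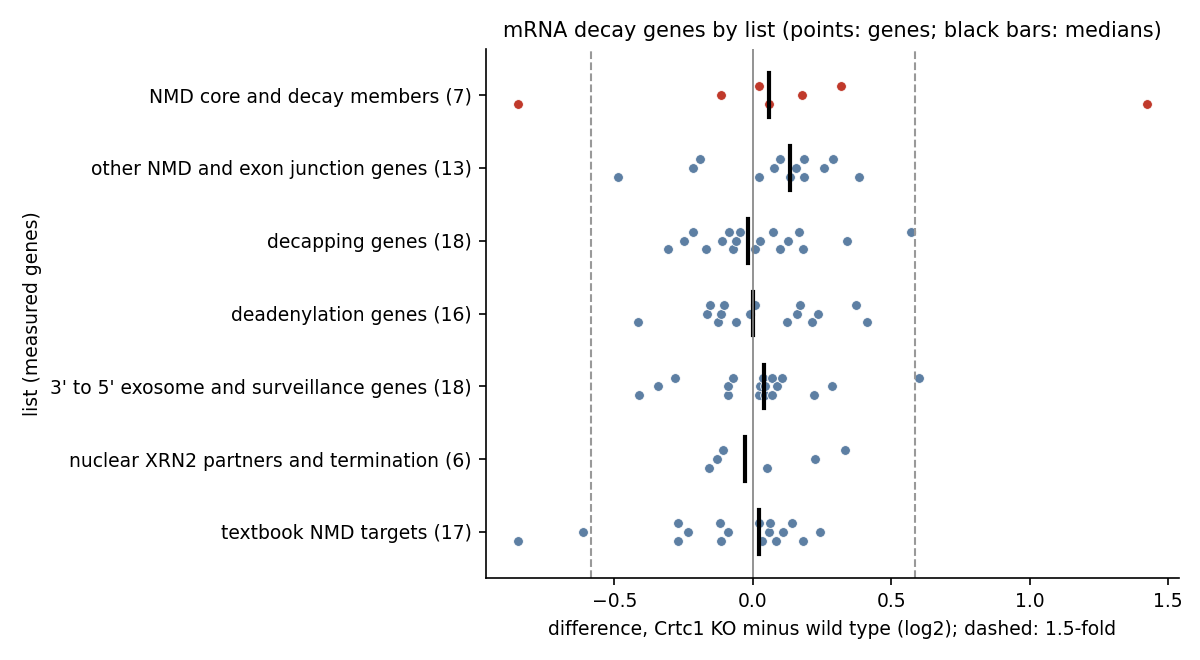
Log2 difference, Crtc1 KO minus wild type, of every measured gene on the mRNA decay lists (points), with list medians (black bars) and 1.5-fold lines (dashed). List medians lie between -0.03 and 0.13. The members run from -0.85 to 1.42, both ends being the pair chosen by its difference, and the other 5 members run from -0.11 to 0.32.

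Transcripts that textbooks name as targets of nonsense-mediated decay were split in direction. Of the measured genes on that list, 4 are members: Upf1, Upf2, Smg1 and Smg5. Without these members 13 were measured, 7 higher and 6 lower in the KO pool with a median of 0.03. Under median centring 6 were higher and 7 lower. The full list of 20 had 17 measured, 9 higher and 8 lower with a median of 0.02, and 6 higher and 11 lower under median centring. Gadd45b, a stress-response gene, was the one non-member past 1.5-fold, at 95.2 in the KO pool and 145.8 in the WT pool (-0.61, array error 0.32). It had probe sets of opposite sign. Of all measured genes 3.5% passed 1.5-fold, and 10.9% of those with a mean log2 signal below 7, where Gadd45b lies. Snhg12, a host gene of small nucleolar RNAs, differed by -0.27 (399 in the KO pool, 481.7 in the WT pool) and Srsf2, a splicing factor gene, by -0.27. Gas5, another such host gene, read 2422 in the KO pool and 2287 in the WT pool (0.08), with probe sets of opposite sign.

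Marker genes of the tissue and of its cell types were measured beside these results. Of 12 hypothalamus markers 8 were measured, 4 higher and 4 lower (2 and 6 under median centring), with a median of -0.01 and a summed signal of 8589 in the KO pool and 8137 in the WT pool. Avp, Oxt, Pomc and Npy among them differed by 0.56, 0.48, -0.35 and -0.13, Pomc with probe sets of opposite sign. Pan-neuronal markers had 2 of 6 higher (4 with quantile normalization and 5 with loess), with a median of -0.02 and Tubb3 lowest at -0.23. Astrocyte markers were higher in 5 of 5, and in 4 of 5 under median centring (median 0.10, Aqp4 0.34) and oligodendrocyte markers in 2 of 4 (-0.02, Mog 0.21). Of the 5 microglia markers 4 were higher, with a median of 0.24 and a summed signal of 1328 in the KO pool and 1143 in the WT pool. Among them Trem2 differed by 0.70 (array error 0.32), at 84.4 in the KO pool and 52.1 in the WT pool. The WT value is under 52.3, the limit set for the mean signal. Trem2 has a mean log2 signal below 7, where 10.9% of measured genes differed at least 1.5-fold. Of the 4 endothelial markers 3 were higher, with a median of 0.21 and Cldn5 at 0.37. All 5 choroid plexus markers were lower, with a median of -0.43, a summed signal of 8233 in the KO pool and 9270 in the WT pool, and Folr1 at -0.58. In pooled tissue RNA, fewer cells of a type and less RNA per cell cannot be told apart, and the part of cell composition in the differences of Upf1, Xrn1 and Xrn2 was not tested.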

How the data were processed

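Signals came from 1 array per genotype, each hybridised with biotin-labelled cRNA made from 30 ug of total RNA, per the labels' protocols. The deposited values are linear probe-set intensities made by the authors; the summarising algorithm and scaling are not stated in the labels used here. After trimming 2% of probe sets at either end, both arrays had a mean of 200.0, but the medians were 54.4 in the KO pool and 52.2 in the WT pool, values that 1 scaling factor per array would give and that quantile normalization would not. Low linear signals can give large ratios from noise, hence the floor and the limit for measured probe sets.

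Of 45101 probe sets, 64 controls were left out. In the platform annotation 34945 had 1 gene, 932 had several and 9160 had none listed. Symbols were updated by Entrez ID through RefSeq (GRCm38.p6), where 34741 matched. Differences are log2 signal in KO minus that in WT. The array error is the SD of the difference between measured probe sets of one gene, in bins of mean log2 signal split at 7, 8, 9 and 10. Computation used Python 3.11.15, pandas 2.3.3 and statsmodels 0.14.6. A run on simulated data used the same SD at all signals. Its check of the array error left out the bin below 7, where Upf1 and Xrn1 lie. The members and lists were chosen with earlier results of these data known. Named genes were the members, Crtc1, the 3 genes nearest to Upf1 and to Xrn1 over the 2 pools, and up to 4 measured genes of each list with the largest difference; Gas5 was added after its values were seen. The alternatives were median centring, quantile normalization, loess with a span of 0.3, a floor at the 10th percentile, one at the 50th, a pseudocount of 16, no filter on dim probe sets, a stricter filter (the 70th percentile), averaging a gene's measured probe sets, and no probe sets ending in _s_at, _x_at or _a_at.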

Additional observations from a re-analysis of the deposited data

How the results depend on the processing

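Upf1 was lower, at -0.91 to -0.72 on the log2 scale, and Xrn1 higher, at 1.26 to 1.42, in each of the 9 alternatives that measured them, all at least 1.5-fold. In 5 of these 9 the value of either gene was the same as in the report, since the setting touches neither its brightest probe set nor its signals, so only the other 4, the scalings and the pseudocount, could move it. A filter at the 70th percentile of signal removed both, so 0 members passed 1.5-fold there among the 5 that were left. Xrn2 was 0.26 to 0.34 and Smg6 0.12 to 0.18 in all 10 alternatives. Smg1 ran from -0.06 to 0.04 and Smg5 from -0.17 to 0.07. With the mean of the measured probe sets Smg1 was -0.06 and Smg5 0.07, each of opposite sign to its brightest probe set. The median of the members ran from 0.00 to 0.07. The number of all measured genes past 1.5-fold was 396, and it was 234 with a pseudocount, 1301 with no filter and 94 with the filter at the 70th percentile. Upf1 and the measured probe set of Xrn1 have mean log2 signals below 7, where the array error was largest. No paired analysis was possible because each genotype is 1 pooled sample.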
